A study of Mus musculus with 4 samples.

Results

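The 40 genes described here encode ligands, receptors, Smads and antagonists of the transforming growth factor beta (TGF-beta) and bone morphogenetic protein (BMP) pathway, and they are followed through 2 lists of 5 kb genome bins in which 5-hydroxymethylcytosine (5hmC) was called different after loss of LSH. LSH is a chromatin remodeler of the SNF2 family, and 5hmC is the product that TET enzymes make from 5-methylcytosine. The cells were embryonic stem (ES) cells with LSH knocked out, wild-type ES cells, mouse embryonic fibroblasts (MEFs) with LSH knocked out and wild-type MEFs, with 1 library of captured 5hmC-bearing DNA for each. The labels name neither the knockout allele nor the clone or embryo behind a culture. The first list compares knockout with wild-type ES cells and the second compares knockout with wild-type MEFs.

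A gene was counted when a listed bin touched its body or the 5 kb upstream of it in the GENCODE M1 annotation of mm9, and all 40 genes were found among 26031 gene models. The lists hold positions only. They give no level, fold, p-value or direction, so a listed bin is one where knockout and wild type were called different, with 5hmC either higher or lower in the knockout. Read depth is unknown, there are no replicates, and neither the genotype nor the cell type can be checked against its markers from positions. Hells, the gene for LSH, had 0 listed bins in ES cells and 0 in MEFs, which checks nothing for the same reason. No test was made between ES cells and MEFs, and a difference between the lists cannot be told apart from a difference in how many bins each pair of libraries allowed to be called. Intervals in brackets are exact 95% binomial intervals (Clopper-Pearson). Their width reflects the number of bins counted and nothing of the spread between cultures, since bins are no replicates. The intervals also treat bins as independent. Among listed member bins, 18.2% in ES cells and 21.2% in MEFs lay next to another bin of the same list. The intervals may therefore be too narrow, and a position above or below a background is a description, not a test.

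In this pathway a dimeric ligand brings type II and type I receptor kinases together, the type I receptor phosphorylates receptor Smads, and these join Smad4 and act on genes in the nucleus. TGF-betas, activins and Nodal signal mainly through Smad2 and Smad3, and BMPs mainly through Smad1, Smad5 and Smad9. Inhibitory Smads, Smurf ubiquitin ligases and the corepressors Ski and Skil restrain the signal inside the cell, while Noggin, Chordin, Gremlin and Follistatin bind ligands outside it. BMP signals help mouse ES cells to self-renew in the presence of LIF, Nodal and activin act as they leave pluripotency, and TGF-beta is a main inducer of matrix genes in fibroblasts.

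Stretches of DNA from 7 genes show the kind of sequence that lay in the listed bins. They come from the bins of member genes on both lists and from listed bins that hold an annotated transcription start. Each is the most CpG-dense 200 bases of its bin outside annotated exons, read 5′ to 3′ on the strand of the gene from the mm9 genome, and capitals mark CpG, the dinucleotide at which 5hmC mostly lies in mammals. The following lie in bins on both lists.
Bmpr1a (chr14:35315966-35316165, minus strand): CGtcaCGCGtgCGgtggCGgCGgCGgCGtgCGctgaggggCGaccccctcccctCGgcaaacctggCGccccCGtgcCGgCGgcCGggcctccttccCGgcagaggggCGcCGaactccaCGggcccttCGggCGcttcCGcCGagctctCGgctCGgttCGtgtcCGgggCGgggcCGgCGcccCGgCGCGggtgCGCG
Acvr1b (chr15:101022135-101022334, plus strand): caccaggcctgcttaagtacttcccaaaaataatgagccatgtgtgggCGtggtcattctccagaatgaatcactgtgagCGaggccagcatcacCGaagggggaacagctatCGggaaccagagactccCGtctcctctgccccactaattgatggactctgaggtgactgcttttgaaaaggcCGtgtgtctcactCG
Bmp6 (chr13:38502226-38502425, plus strand): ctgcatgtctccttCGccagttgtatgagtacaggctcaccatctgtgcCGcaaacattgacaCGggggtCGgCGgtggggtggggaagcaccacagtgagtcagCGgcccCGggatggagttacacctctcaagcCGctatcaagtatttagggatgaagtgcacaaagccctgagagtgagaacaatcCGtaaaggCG
The next lies in a bin listed in ES cells.
Smad6 (chr9:63864799-63864998, minus strand): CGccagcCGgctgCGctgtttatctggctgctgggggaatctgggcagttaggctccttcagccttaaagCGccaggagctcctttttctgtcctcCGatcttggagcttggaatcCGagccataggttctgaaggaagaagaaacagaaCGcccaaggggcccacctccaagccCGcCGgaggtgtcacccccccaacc
The last ones lie in bins listed in MEFs.
Tgfb2 (chr1:188528094-188528293, minus strand): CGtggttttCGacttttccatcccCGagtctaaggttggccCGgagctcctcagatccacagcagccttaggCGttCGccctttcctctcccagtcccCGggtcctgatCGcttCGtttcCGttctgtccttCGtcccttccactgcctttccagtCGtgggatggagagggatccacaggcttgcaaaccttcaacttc
Bmp1 (chr14:70919226-70919425, minus strand): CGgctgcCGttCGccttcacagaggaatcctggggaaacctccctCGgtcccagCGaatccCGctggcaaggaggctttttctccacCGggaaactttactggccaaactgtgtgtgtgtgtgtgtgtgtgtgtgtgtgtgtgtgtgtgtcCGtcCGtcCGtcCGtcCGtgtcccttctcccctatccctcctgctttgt
Acvr1 (chr2:58366868-58367067, minus strand): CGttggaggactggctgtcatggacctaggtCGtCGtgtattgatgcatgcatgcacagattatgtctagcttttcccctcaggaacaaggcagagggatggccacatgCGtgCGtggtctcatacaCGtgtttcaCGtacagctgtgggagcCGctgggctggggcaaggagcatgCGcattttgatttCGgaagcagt
The Bmpr1a stretch held 36 CpGs and was 81.5% G and C, and its centre lay 0.461 kb inside the gene, in the first intron. The others were sparser, with 12 CpGs in Tgfb2 and in Bmp1, 10 in Bmp6 and in Acvr1, 9 in Smad6 and 7 in Acvr1b. The stretches were chosen by CpG alone and the bins are 5 kb wide, so the lists do not say whether any of these CpGs carried 5hmC.

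Of the 40 genes, 16 had a listed bin in ES cells and 17 in MEFs. The background over all 26031 gene models was 19.8% in ES cells and 14.1% in MEFs, so both counts, 40% and 42.5% of the members, lay above it. A bin on each list was found in 11 members, on the ES list alone in 5, on the MEF list alone in 6 and on neither in 18. Across all gene models 5.9% had a bin on each list and 28.0% had one on either. The median number of bins per gene was 0 in both lists, for the members and for all gene models alike. Most listed members had a single ES bin (11 of 16), and Bmpr1a had the most, 3. In MEFs 7 of 17 had a single bin, and Tgfbr3 had the most, 5.

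**Figure D1:**
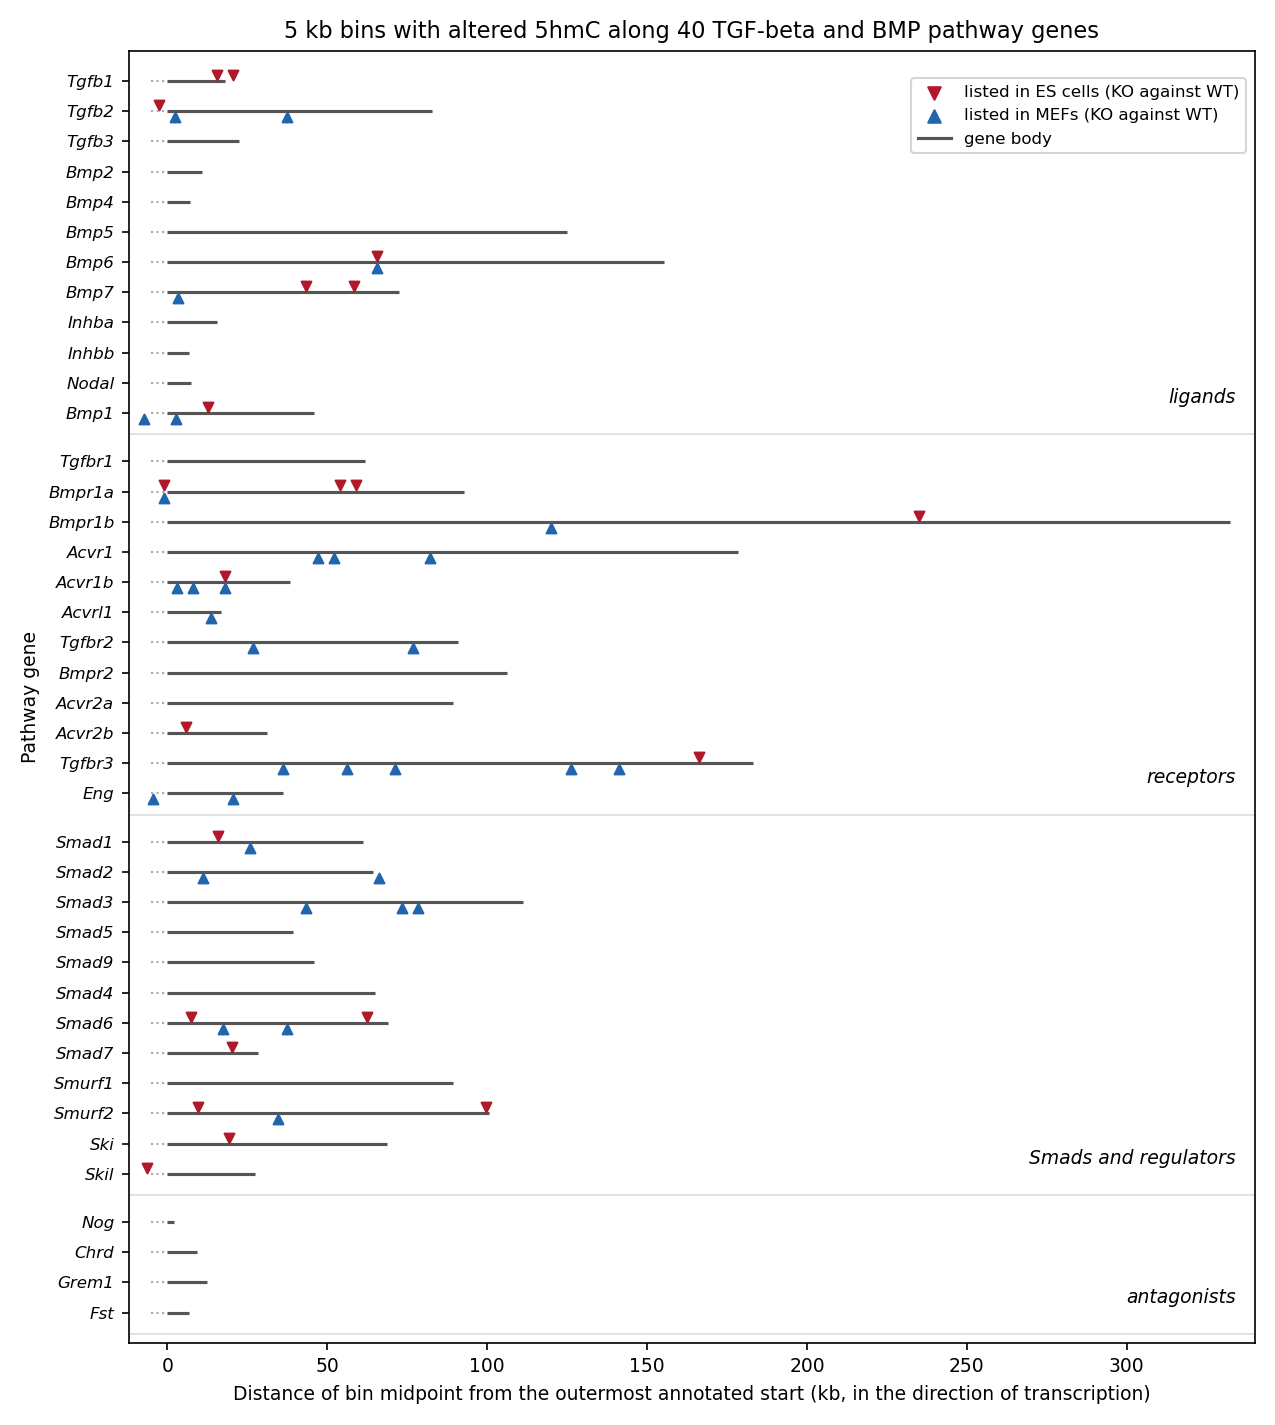
Position of every listed bin along the 40 genes: each row is a gene, drawn as a line from its outermost annotated start (0 on the x axis, in kb) to its end, with the 5 kb upstream dotted. Triangles above a line are midpoints of ES bins and triangles below it are midpoints of MEF bins. The 4 antagonists have none, and Tgfbr3 has 5 in MEFs against 1 in ES cells.

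Long genes have more bins that could be listed, and the members were long, with a median of 53.4 kb against 13.6 kb for all gene models. Counted per bin, 22 of the 605 bins of member loci were listed in ES cells, or 3.64% [2.29% to 5.45%], and 33 in MEFs, or 5.45% [3.78% to 7.57%]. Among the bins of all gene loci the shares were 2.57% in ES cells and 2.37% in MEFs. The ES share of the members thus lay near the background, with the background inside its interval, and the whole MEF interval lay above its background. The median was 10.6 CpG per kb in member bins and 8.6 in all gene loci. At 10 to 15 CpG per kb 4.63% and 4.20% of gene-locus bins were listed in ES cells and MEFs, inside both member intervals. Members of 30 to 100 kb had an ES bin in 9 of 18 genes and a MEF bin in 10 of 18, against 30.9% and 21.3% of all gene models of that length. Of those over 100 kb, 4 of 8 had an ES bin and 6 of 8 a MEF bin, where 46.7% and 46.0% of all gene models did. A bin on each list was found in 7 of the 18 members of 30 to 100 kb, against 9.52% of gene models of that length, and in 4 of the 8 over 100 kb, against 29.1%. Among the 8 members of 10 to 30 kb, 3 had an ES bin and 1 a MEF bin, against 19.3% and 10.8%. None of the 6 members under 10 kb (Bmp4, Inhbb, Nodal, Nog, Chrd and Fst) had a bin, a length at which 8.74% of gene models had an ES bin and 5.35% a MEF bin.

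**Figure D2:**
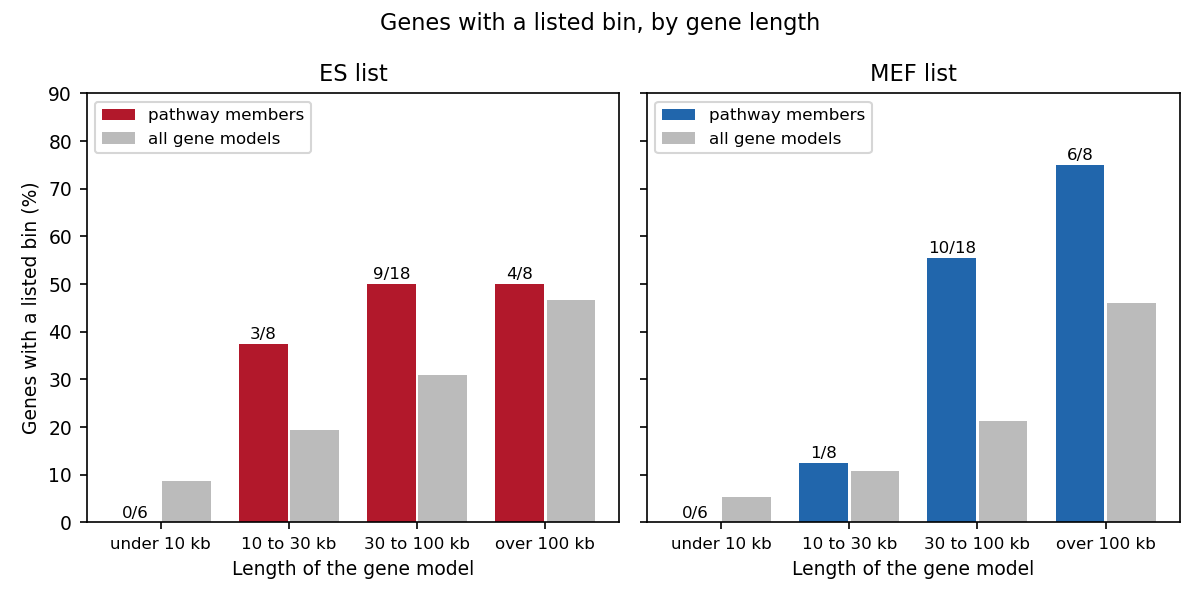
Share of genes with a listed bin (y axis, %) by length of the gene model, with the ES list in the left panel and the MEF list in the right; coloured bars are the pathway members, with their counts above, and grey bars are all gene models. In the ES list the bars of members and of all models are close for genes over 100 kb (4 of 8 against 46.7%), and in the MEF list they are close for genes of 10 to 30 kb (1 of 8 against 10.8%).

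Among the 12 genes for ligands, counting Bmp1, 5 had an ES bin and 4 a MEF bin. Across all gene models the shares were 19.8% and 14.1%, and the ligand genes had a median length of 20.2 kb. Of their 138 bins 7 were listed in ES cells, or 5.07% [2.06% to 10.2%], and 6 in MEFs, or 4.35% [1.61% to 9.22%]. The shares of all gene loci, 2.57% and 2.37%, lay inside both intervals. Tgfb1, the TGF-beta isoform with the widest roles in immunity and fibrosis, had 2 ES bins and 0 MEF bins. The ES bins touched one another at the 3′ end of the gene (chr7:26485001-26490000, with exons 6 and 7, and chr7:26490001-26495000, which holds the end of the 3′ UTR). Both make up 33.3% of the 6 bins of the Tgfb1 locus, the largest ES share of any member. The gene ends at chr7:26490096, so the second bin lies almost wholly past it. Tgfb2, needed for heart and craniofacial development, had 1 ES bin and 2 MEF bins. Its start is bracketed by a bin from each list, which touch: the ES bin (chr1:188530001-188535000) begins 0.13 kb upstream of the gene, and the MEF bin (chr1:188525001-188530000) holds the start and exon 1. The MEF bin was the most CpG-dense of the locus, at 34.6 CpG per kb, and the ES bin had 15.6. A further MEF bin lay in intron 1 (chr1:188490001-188495000).

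Bmp6, which signals iron stores to hepcidin, had a single bin (chr13:38500001-38505000), in intron 1 and 65.5 kb from the start. That bin was on both lists, and the Bmp6 stretch printed above comes from it. Bmp7, a BMP needed for kidney and eye, had 2 ES bins in its distal part, over exon 4 (chr2:172705001-172710000) and in intron 2 (chr2:172720001-172725000). Its 1 MEF bin lay at the other end, in intron 1 within 1 kb of the start (chr2:172760001-172765000), with 28.2 CpG per kb against 15.6 and 15.4 in the ES bins. Bmp1, a metalloprotease that cleaves procollagens and Chordin and belongs to the pathway by that role, had 1 ES bin over exons 3 to 7 (chr14:70905001-70910000). In MEFs it had a bin over exon 1 (chr14:70915001-70920000) and one upstream (chr14:70925001-70930000) that also touches Lgi3 and Sftpc, so the upstream bin cannot be assigned to Bmp1 alone. That bin only reaches the edge of the 5 kb window, with its midpoint at -7.43 kb from the Bmp1 start. The other 7 ligand genes, Tgfb3, Bmp2, Bmp4, Bmp5, Inhba, Inhbb and Nodal, had none. Bmp5 was the longest of these, with 0 of 27 bins listed in either cell type and a median of 6.4 CpG per kb.

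The 12 receptor and co-receptor genes were the class in which the lists differed most, with 5 genes on the ES list and 8 on the MEF list. Across all gene models the shares were 19.8% and 14.1%. The receptor genes were the longest class, with a median of 90.1 kb. At 30 to 100 kb 30.9% and 21.3% of gene models had a bin, and over 100 kb 46.7% and 46.0% did. Of the 274 receptor bins, 7 were listed in ES cells, or 2.55% [1.03% to 5.19%], and 18 in MEFs, or 6.57% [3.94% to 10.2%]. These intervals overlap. The ES share was close to the 2.57% of all gene loci, and the MEF interval lay above the 2.37% of all gene loci. An ES bin and no MEF bin was found in 1 gene (Acvr2b), and MEF bins and no ES bin in 4 (Acvr1, Acvrl1, Tgfbr2 and Eng).

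The 6 type I receptor genes held 5 of the 7 ES bins and 9 of the 18 MEF bins. Bmpr1a, the main BMP type I receptor of the early embryo, had 3 ES bins and 1 MEF bin. One bin on both lists held its start and exon 1 and also touched the overlapping Gm17110 model (chr14:35315001-35320000). With 49.6 CpG per kb it was at least as dense as 99.9% of all bins. The other ES bins touched one another over exons 4 and 3 (chr14:35255001-35260000 and chr14:35260001-35265000) and had only 6.2 and 7.8 CpG per kb. Bmpr1b, a BMP receptor of cartilage and ovary and the longest member at 332 kb, had 1 ES bin (chr3:141595001-141600000) and 1 MEF bin (chr3:141710001-141715000). These lay 115 kb apart, the ES bin within 1 kb of an internal transcript start and the MEF bin in an intron of a longer transcript. Acvr1, the BMP receptor mutated in fibrodysplasia ossificans progressiva in humans, had 0 ES bins and 3 MEF bins. The MEF bins were chr2:58335001-58340000 in intron 5 and the touching bins chr2:58365001-58370000, at an internal transcript start, and chr2:58370001-58375000 in intron 2.

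Acvr1b, the activin and Nodal type I receptor, had 1 ES bin and 3 MEF bins among 10 bins. The bin over exon 2 (chr15:101020001-101025000) was on both lists. The remaining MEF bins touched one another in intron 1, beginning within 1 kb of the start (chr15:101005001-101010000 and chr15:101010001-101015000). Acvrl1, an endothelial receptor for BMP9 and BMP10, lies 28.8 kb from Acvr1b and had 0 ES bins and 1 MEF bin, over exons 10 and 11 (chr15:100970001-100975000). On chromosome 15 the share of gene-locus bins that was listed was 3.16% in ES cells and 4.24% in MEFs, both above the shares over all chromosomes, and the part of this in the Acvr1b and Acvrl1 bins was not tested. Tgfbr1, the type I receptor for TGF-beta, had 0 of 14 bins on either list, with a median of 4.6 CpG per kb, the lowest of the members.

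Of the 4 type II receptors, Tgfbr2, the TGF-beta type II receptor, had 0 ES bins and 2 MEF bins, in intron 6 (chr9:116005001-116010000) and intron 2 (chr9:116055001-116060000). Acvr2b, an activin type II receptor, had the opposite pattern with 1 ES bin in intron 1 (chr9:119315001-119320000) and 0 MEF bins. Bmpr2 and Acvr2a had none in 23 and 20 bins. Both co-receptors were on the MEF list. Tgfbr3, or betaglycan, which presents TGF-beta2 to its receptors, had 1 ES bin over exon 15 (chr5:107550001-107555000) and 5 MEF bins, none of which touched another. The MEF bins lay over exons 6 and 7 (chr5:107575001-107580000), in intron 4 (chr5:107590001-107595000) and in intron 2 (chr5:107645001-107650000, chr5:107660001-107665000 and chr5:107680001-107685000). Endoglin, encoded by Eng and best known from endothelium, had 0 ES bins and 2 MEF bins, over exon 3 (chr2:32520001-32525000) and upstream (chr2:32495001-32500000), where the bin also touches Ak1.

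**Figure D3:**
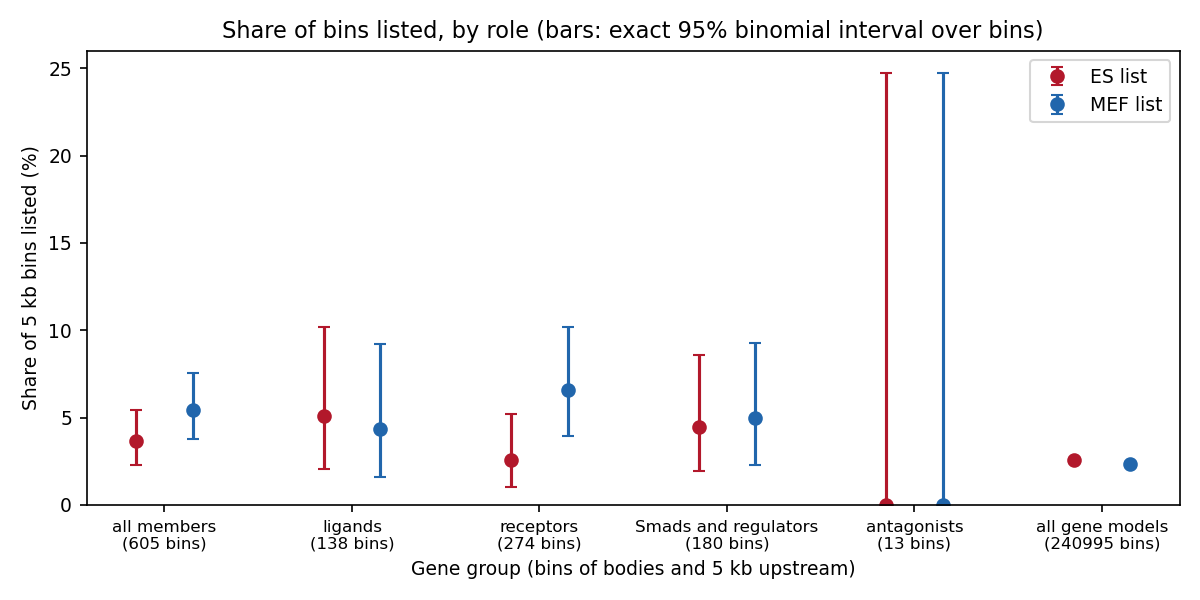
Share of 5 kb bins listed (y axis, %) for all members, each class of member and all gene models, with the ES list left of the MEF list in each group; bars are exact 95% binomial intervals over bins. Receptors stand at 2.55% in ES cells and 6.57% in MEFs, and the antagonists, with 13 bins in all, at 0 with an interval too wide to place them.

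Smads and their intracellular regulators had 6 of 12 genes on the ES list and 5 on the MEF list. Across all gene models the shares were 19.8% and 14.1%, and at 30 to 100 kb they were 30.9% and 21.3%. The Smad and regulator genes had a median length of 64.5 kb. Their 180 bins had 8 listed in ES cells, or 4.44% [1.94% to 8.57%], and 9 in MEFs, or 5.00% [2.31% to 9.28%]. Background shares of 2.57% in ES cells and 2.37% in MEFs lay inside the ES interval and just above the lower end of the MEF interval. No bin of this class was on both lists.

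Smad2 and Smad3, the receptor Smads of the TGF-beta and activin branch, had 0 ES bins and 5 MEF bins between them. Of their 40 bins, 0% [0% to 8.81%] were listed in ES cells and 12.5% [4.19% to 26.8%] in MEFs. The ES interval held the background, and the MEF interval lay above it. Their bins had a median of 11.0 CpG per kb. At 10 to 15 CpG per kb 4.20% of gene-locus bins were listed in MEFs, just inside the MEF interval. Smad2 had a MEF bin in intron 1 (chr18:76410001-76415000) and one over the end of its 3′ UTR (chr18:76465001-76470000). In Smad3 the MEF bins all lay in intron 1 of the longest coding transcript, as a touching pair (chr9:63525001-63530000 and chr9:63530001-63535000) and a single bin near an internal transcript start (chr9:63560001-63565000). The BMP-branch Smads had 1 ES bin and 1 MEF bin among 36 bins, or 2.78% [0.0703% to 14.5%] on each list, with the background inside. In each list this interval overlaps that of Smad2 and Smad3. Both listed bins of the BMP branch fell in Smad1, 10 kb apart, and Smad5 and Smad9 had none. The ES bin lay in intron 1 (chr8:81905001-81910000) and the MEF bin over exon 2 (chr8:81895001-81900000). Setting these branches side by side was chosen after their values were seen. Smad4, the partner common to both, had 0 of 15 bins listed.

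Of the 6 genes that restrain the signal inside the cell, 5 had an ES bin and 2 a MEF bin, where 19.8% and 14.1% of all gene models did. They were long, with a median of 68.7 kb, and at 30 to 100 kb the shares of all gene models were 30.9% and 21.3%. Smurf2 was just over 100 kb, and Smad7 and Skil were under 30 kb. Of their 89 bins, 7.87% [3.22% to 15.5%] were listed in ES cells and 3.37% [0.701% to 9.54%] in MEFs. The ES interval lay above the 2.57% of all gene loci, and the MEF interval held the 2.37%. The 89 bins had a median of 12.8 CpG per kb. At 10 to 15 CpG per kb 4.63% of gene-locus bins were listed in ES cells, inside the ES interval. These 6 genes were put together after their values were seen. Smad6, which inhibits BMP receptors, had 2 ES bins and 2 MEF bins without a bin in common. The ES bins lay near the start, over exon 2 (chr9:63860001-63865000), and near the end in intron 3 (chr9:63805001-63810000), and the MEF bins lay between them in intron 3 (chr9:63830001-63835000 and chr9:63850001-63855000). Smad6 lies 195 kb from Smad3. Smad7, an inhibitor of both branches, had 1 ES bin in intron 3 (chr18:75545001-75550000) and 0 MEF bins. Ski and Skil, which repress transcription with Smads, had 1 ES bin each and 0 MEF bins, in intron 1 of Ski (chr4:154575001-154580000) and upstream of Skil (chr3:30985001-30990000). The Skil bin lies only partly in the 5 kb window, with its midpoint at -6.48 kb from the start. Smurf2, a ubiquitin ligase for receptors and Smads, had 2 ES bins and 1 MEF bin. Its ES bins lay over exons 18 and 19 (chr11:106680001-106685000), where the bin also touches Ccdc45 and Gm11706, and in intron 1 (chr11:106770001-106775000), and its MEF bin lay in intron 1 (chr11:106745001-106750000). Smurf1, its paralog, had 0 of 20 bins on either list.

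None of the 4 secreted antagonists, Nog, Chrd, Grem1 and Fst, had a listed bin in ES cells or in MEFs. These are short genes with 13 bins together, and 0 of 13 allows a share of up to 23.1% when 3 bins are taken as the limit, so a share like that of the other members was not detectable. The median over their bins was 13.2 CpG per kb against 10.6 over all member loci, and by gene it ran from 8.5 in Grem1 to 34.7 in Nog. The closest listed bins lay 10.8 kb from Fst in ES cells and 6.2 kb from Grem1 in MEFs. The farthest were Grem1 in ES cells, 211 kb from a listed bin, and Chrd in MEFs, at 468 kb. Members with no ES bin had a median distance of 74.0 kb to the nearest one, against 93.2 kb for all gene models with no ES bin, and in MEFs the medians were 56.9 kb and 140 kb.

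The bins of the 11 genes on each list mostly did not coincide. Bmp6, Bmpr1a and Acvr1b shared a bin, and the other 8 had their closest ES and MEF bins from 5 kb apart in Tgfb2 to 115 kb apart in Bmpr1b. Shared bins were 13.6% of the ES bins and 9.09% of the MEF bins of member loci, against 4.57% and 4.95% for all gene loci. They rest on 3 of the 605 member bins, where 0.117% of the bins of all gene loci were on both lists. A shared bin was found in 3 of 40 members and in 1.13% of all gene models.

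Within the genes, ES bins lay more over exons and MEF bins more in introns, as they did over all gene models. By the class of a bin in its own gene, ES bins were 4 promoter, 9 exon, 8 intron and 1 upstream bin, where promoter means within 1 kb of any annotated start. MEF bins were 7 promoter, 6 exon, 18 intron and 2 upstream bins. Exon bins were thus 40.9% in ES cells and 18.2% in MEFs for the members, against 34.7% and 24.5% of the pairs of gene and bin over all gene models, and intron bins were 36.4% and 54.5%, against 30.2% and 46.9%. Of the members 4 had an ES promoter bin and 7 a MEF promoter bin, with backgrounds of 7.15% and 5.02%. The outermost start itself was within 1 kb of an ES bin in Tgfb2 and Bmpr1a, and of a MEF bin in Tgfb2, Bmp7, Bmp1, Bmpr1a and Acvr1b. Coding sequence of the longest coding transcript lay in 9 of 22 ES bins and in 7 of 33 MEF bins. There were 6 ES bins and 4 MEF bins that had their midpoint in the last 25% of the gene or past its end, and 3 ES bins and 7 MEF bins had it in the first 25%.

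Listed bins of the members were rich in CpG. The median was 15.0 CpG per kb in their ES bins and 12.8 in their MEF bins, against 10.4 in their unlisted bins, and over all gene loci the medians were 13.0 in ES bins and 11.6 in MEF bins. The ES bins other than the Bmpr1a promoter ran no higher than 18.4 CpG per kb (Smad6), while the MEF bins reached 34.6 in Tgfb2, 28.2 in Bmp7 and 20.8 in Bmp1. Of the 54 member bins with 20 or more CpG per kb 1 was listed in ES cells and 4 in MEFs, or 1.85% [0.0469% to 9.89%] and 7.41% [2.06% to 17.9%], against 4.90% and 3.03% over all gene loci. In bins of 15 to 20 CpG per kb the ES share was the higher one, with 12.5% [6.16% to 21.8%] in ES cells and 7.50% [2.80% to 15.6%] in MEFs, against 7.20% and 4.62%. The MEF share was the higher one again in the 220 bins of 10 to 15 CpG per kb, which held 17 of the 33 MEF bins, with 3.64% [1.58% to 7.04%] in ES cells and 7.73% [4.57% to 12.1%] in MEFs, against 4.63% and 4.20%. It was so too in the 207 bins of 5 to 10, with 1.45% [0.300% to 4.18%] and 2.90% [1.07% to 6.20%], against 1.19% and 1.64%, and none of the 44 bins under 5 was on either list. The ES and MEF intervals overlapped in every band. Little of these bins was repeated sequence, in which reads are hard to place: repeated 32-base words made up at most 18.6% of an ES bin, at Tgfb2, and 10.8% of a MEF bin, at Eng.

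**Figure D4:**
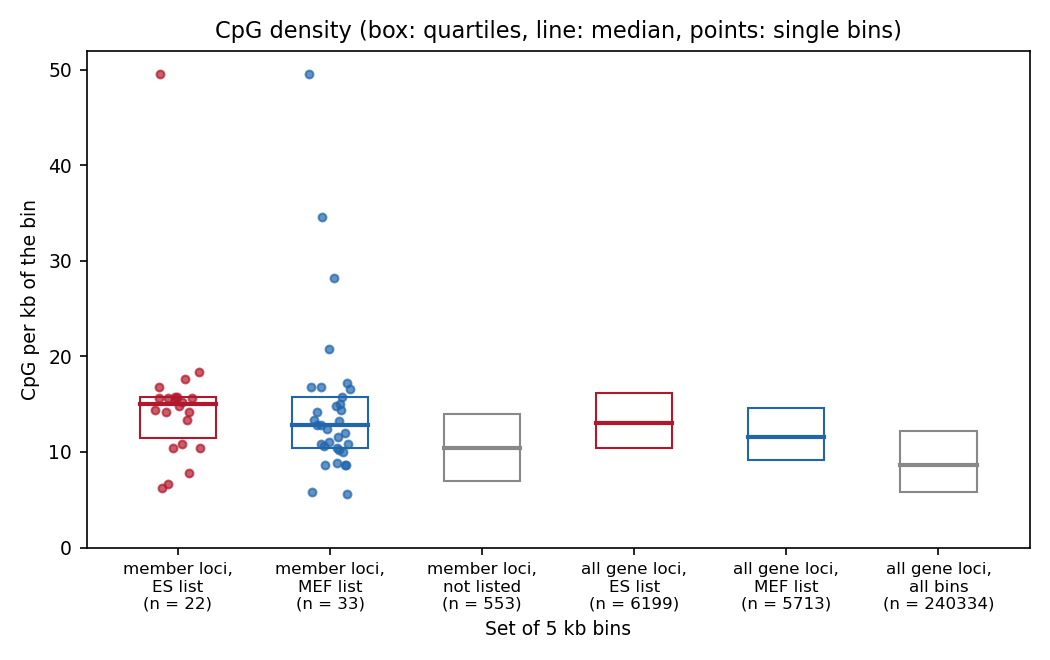
CpG per kb (y axis) of 5 kb bins in member loci and in all gene loci; boxes span the quartiles, the line is the median and points are the single listed bins of the members. The point near the top of both member columns is the same bin, the Bmpr1a promoter at 49.6, and the ES bins otherwise end at 18.4.

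A further 75 genes of the pathway, chosen by their known role, lay nearer the background. Of these, 18 had an ES bin and 19 a MEF bin, or 24.0% and 25.3%, against 19.8% and 14.1% of all gene models. Of their 831 bins, 3.37% [2.25% to 4.83%] were listed in ES cells and 4.09% [2.85% to 5.67%] in MEFs. The ES background of 2.57% lay inside its interval and the MEF background of 2.37% below its interval, and these genes were shorter than the members, with a median of 15.3 kb. Their bins had a median of 10.2 CpG per kb. At 10 to 15 CpG per kb 4.20% of gene-locus bins were listed in MEFs, inside the MEF interval. Latency and matrix proteins had 6 of 12 genes on each list. At 30 to 100 kb 30.9% and 21.3% of gene models had a bin, and these 12 genes had a median length of 59.7 kb. Of their 245 bins, 4.90% [2.56% to 8.40%] were listed in ES cells and 6.12% [3.47% to 9.90%] in MEFs. The ES interval just held the share of all gene loci and the MEF interval lay above it. Ltbp1, a latent TGF-beta binding protein, had 3 ES bins and 5 MEF bins, of which 1 in an intron was on both lists (chr17:75410001-75415000). Ltbp2, its relative in elastic fibres, had 1 ES bin and 2 MEF bins, with 1 on both lists at an internal transcript start (chr12:86130001-86135000). Ltbp4 had 3 ES bins in a row (chr7:28100001-28115000) and 0 MEF bins. Fbn1, the fibrillin gene of Marfan syndrome, had 1 ES bin and 5 MEF bins, and Itgav, an integrin chain that activates latent TGF-beta, had 3 ES bins, 2 of them also touching Gm13684, and 0 MEF bins.

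The other ligands had 5 of 22 genes on the ES list and 1 on the MEF list, against 19.8% and 14.1% of all gene models. Their median length was 6.08 kb, and under 10 kb the shares of gene models were 8.74% and 5.35%. The 84 bins of these ligands were listed at 5.95% [1.96% to 13.3%] in ES cells and 1.19% [0.0301% to 6.46%] in MEFs. Both intervals held the shares of all gene loci. Promoter bins were on the ES list at Lefty2, a Nodal inhibitor of the embryo, at Gdf1 and at Amh, and on the MEF list at Bmp10. The Gdf1 and Amh bins also touch neighbouring genes, Lass1 for Gdf1, and Plekhj1 and Sf3a2 for Amh. Other antagonists and modulators had 1 of 15 genes on the ES list and 5 on the MEF list, with a median length of 28.3 kb. At 10 to 30 kb 19.3% and 10.8% of gene models had a bin. Of the 228 bins of this group, 0.439% [0.0111% to 2.42%] were listed in ES cells, below the 2.57% of all gene loci. Their median was 7.8 CpG per kb, and at 5 to 10 CpG per kb the ES share of gene-locus bins was 1.19%, inside the interval. In MEFs 3.07% [1.24% to 6.22%] were listed, with the 2.37% inside the interval. Among these genes Bmper, a secreted BMP regulator, had 0 ES bins and 3 MEF bins. Htra1, a secreted protease, had 1 MEF bin at its outermost start and 1 ES bin at an internal transcript start. Both Htra1 bins also lie inside the very long Fgfr2 model. Other receptors had promoter bins at Rgma in ES cells and at Amhr2 in MEFs, the Rgma bin also touching A730056A06Rik.

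Cofactors and adaptors had 5 of 12 genes on the ES list and 3 on the MEF list. At 30 to 100 kb 30.9% and 21.3% of gene models had a bin, and these 12 genes had a median length of 47.2 kb. Of their 199 bins, 4.52% [2.09% to 8.41%] were listed in ES cells and 3.02% [1.11% to 6.45%] in MEFs, and both intervals held the shares of all gene loci. Nedd4l, a ubiquitin ligase for Smads, had 4 ES bins and 1 MEF bin over 330 kb, and Pmepa1, a TGF-beta target that restrains Smad signalling, had 1 ES bin and 4 MEF bins, including its promoter (chr2:173100001-173105000, 54.0 CpG per kb), a bin that also touches Gm14454. Map3k7, the kinase TAK1, had 2 ES bins and 0 MEF bins. ES bins lay within 1 kb of internal transcript starts of Tab2 and Ppm1a, with midpoints 48.5 kb and 20.3 kb from the outermost starts. A MEF promoter bin lay at the start of Tgif2 and also touches Gm14230 and 5430405H02Rik. Direct targets had 0 of 7 genes on the ES list and 2 on the MEF list, against 19.8% and 14.1% of all gene models. Of their 24 bins, 0% [0% to 14.25%] were listed in ES cells and 12.5% [2.66% to 32.4%] in MEFs. The ES interval held the 2.57% of all gene loci, and the MEF interval lay just above the 2.37%. These bins had a median of 15.6 CpG per kb. At 15 to 20 CpG per kb 4.62% of gene-locus bins were listed in MEFs, inside the MEF interval. The 3 MEF bins came from 2 genes. The 4 Id genes, immediate targets of BMP signalling, had none. They are 1.16 to 2.61 kb long, and under 10 kb only 8.74% of gene models had an ES bin and 5.35% a MEF bin. The Id genes are named here after their values were seen.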

How the data were processed

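5hmC-bearing fragments were captured from sonicated genomic DNA by glucosylation, biotinylation and streptavidin pull-down, per the labels' protocols, in 4 libraries, 1 for each genotype and cell type. The submitters' processing notes name BWA, SAMtools 1.3.1 and mm9; how bins were counted and called is not given in the sources used here. What the authors deposited is other than a level, namely starts, ends and running numbers of 5 kb bins, 8557 in ES cells and 9002 in MEFs.

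Bins on chromosomes 1 to 19 and X (8545 and 8972) were used, and all their running numbers matched the bin numbering of NCBIM37 (mm9). Genes were protein-coding, lincRNA and processed transcript models of GENCODE M1, the longest locus per name. CpG, GC and the share of repeated 32-base words (1 in 64 sampled) were computed per bin; bins over 50% undetermined were left out of these. Repeat families and expression were not analysed here. The members, the further pathway genes and the tables were chosen with earlier results of these data known. Every member was named, and further genes with at least 2 bins on a list, a bin on both lists or a promoter bin. Of them, 1 is not reported here by name. On 20 simulated lists the overlap counts were the same as a separate count from coordinates. The planted genes came back at 100%, which was fixed in advance because planted bins were drawn from the genes' own windows. No statistical test was made. Depth per library is unknown. Scripts ran in Python 3.11.15 with pandas 2.3.3, numpy 2.4.6, numba 0.67.0, matplotlib 3.10.9 and scipy 1.17.1.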

Additional observations from a re-analysis of the deposited data

How the results depend on the processing

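The counts of members and bins (16 members and 22 bins in ES cells, 17 and 33 in MEFs, 3 members with a bin on both lists) were recomputed under 7 alternatives. With promoter bins alone they were 4 members and 4 bins in ES cells, 7 members and 7 bins in MEFs, and 1 member on both lists. Without chromosomes 14 and 15, chosen after seeing the data, 1 member had a bin on both lists (Bmp6), and receptor genes with a bin numbered 3 in ES cells and 5 in MEFs. The other 29 of 35 recomputed counts stayed within 1.5 times. Of these, 4 were without chromosomes 14 and 15 (13 members and 17 bins in ES cells, 13 members and 26 bins in MEFs), and 25 were with the gene body alone, 10 kb upstream, the bin midpoint inside the window, no bins that touch other genes, and no bins of 20% or more repeated words. With 10 kb upstream Tgfb1 gained a bin on both lists (chr7:26460001-26465000), Inhbb entered the ES list, and Grem1, an antagonist, entered the MEF list. No paired analysis was possible because each group has 1 library. A stricter threshold could not be tried, since no score is given for a bin. How depth and the caller set these counts was not tested.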
